A study of Homo sapiens with 6 samples.

Results

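The 10 genes described here encode the proteins that decide whether a cell leaves the G1 phase of its cycle. They are the D-type cyclins CCND1, CCND2 and CCND3, the kinases CDK4 and CDK6 that the D cyclins switch on, the kinase inhibitors CDKN1B, CDKN1C, CDKN2A and CDKN2C, and the retinoblastoma gene RB1. They were taken by gene name from the deposited table, and all 10 were found among its 19937 gene rows, each on 1 row. The data are RNA sequencing read counts of 6 libraries from SK-N-BE(2), a long-established line of human neuroblastoma with MYCN amplification. By their titles, 3 libraries are sgcon and 3 are sgGPR91, that is, cells with a control guide and cells with a guide against GPR91, the succinate receptor encoded by SUCNR1. The genotype tags state the reverse, so groups are called here by their titles, and each direction would turn round if the tags were right. Every library came from cells exposed to the anthracycline doxorubicin for 48 hours, which the labels give as 100 nmol/L in one place and as DOX at 1.5 μg/ml in another; untreated cells were not analysed here. The labels do not say whether the cells were a pool or 1 clone, nor whether the replicates were separate cultures, so the p-values below describe no more than the variation among these 6 libraries, part or all of which may be technical.

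In G1, D-type cyclins bind CDK4 or CDK6, and the active kinases phosphorylate the RB1 protein, which otherwise holds E2F transcription factors in check. INK4 inhibitors, such as the products of CDKN2A and CDKN2C, bind CDK4 and CDK6 and keep cyclin D away. CIP/KIP inhibitors, the products of CDKN1A, CDKN1B and CDKN1C, bind cyclin and kinase together and chiefly restrain CDK2. In neuroblastoma, high cyclin D1 and CDK4 or CDK6 activity are well known, and CDKN1C is an imprinted gene that is active on the maternal copy.

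The library totals ran from 7070189 to 10252425 reads. SUCNR1 had 3 reads in all sgcon libraries and 1 in all sgGPR91 libraries, so it does not check the labels at this depth. All 12 neuroblastoma markers examined, among them HAND2, TH and DBH, were detected above the count filter. Of these 10 fell and 1, CHGB, rose (91.7% called, beside 41.1% of all genes tested), and PHOX2A was not called. Their summed level was 6788 to 7665 CPM (read counts scaled to library size) in sgcon against 4968 to 5398 in sgGPR91. MYCN is 1 of the 12 and was the largest term, with means of 2766 CPM in sgcon and 1689 CPM in sgGPR91. Of 8 fibroblast markers, 7 passed the filter, with a summed level of 943.9 to 1024 CPM in sgcon and 921.6 to 934.2 in sgGPR91. Of 6 epithelial markers 1 passed, EPCAM, and KRT5 had no read in any library; of 7 immune and endothelial markers 1 passed, CD14, and CD68 and CD3E had none. Reads of the mitochondrial genome were 2.15 to 2.45% of the total in sgcon and 3.36 to 3.91% in sgGPR91. The part of the marker and mitochondrial differences in the results below was not tested.

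Sequences 250 bases upstream of the RefSeq start (build GRCh38.p14) are shown for 3 genes, because they differ in a sequence recognised by MYC family factors, which include MYCN, the amplified gene of this line. RefSeq windows were found for 7 of the 10 genes, 13 windows in all. Capitals mark the E-box CACGTG, which reads the same on both strands. CDK4 is shown for its E-boxes, CDK6 as its partner kinase, and CDKN2C at the most upstream of its 3 RefSeq starts.
CDK4, chr12:57752311-57752560, minus strand: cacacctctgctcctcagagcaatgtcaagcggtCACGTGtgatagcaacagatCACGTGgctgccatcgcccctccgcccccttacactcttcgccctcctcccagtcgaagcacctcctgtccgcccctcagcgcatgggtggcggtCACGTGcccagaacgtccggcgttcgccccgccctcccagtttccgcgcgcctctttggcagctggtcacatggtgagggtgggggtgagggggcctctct
CDK6, chr7:92836574-92836823, minus strand: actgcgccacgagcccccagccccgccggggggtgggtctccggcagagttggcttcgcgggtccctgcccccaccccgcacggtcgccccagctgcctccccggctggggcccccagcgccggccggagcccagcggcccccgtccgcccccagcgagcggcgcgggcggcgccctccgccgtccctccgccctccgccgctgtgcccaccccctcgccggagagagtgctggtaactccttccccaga
CDKN2C, chr1:50960495-50960744, plus strand: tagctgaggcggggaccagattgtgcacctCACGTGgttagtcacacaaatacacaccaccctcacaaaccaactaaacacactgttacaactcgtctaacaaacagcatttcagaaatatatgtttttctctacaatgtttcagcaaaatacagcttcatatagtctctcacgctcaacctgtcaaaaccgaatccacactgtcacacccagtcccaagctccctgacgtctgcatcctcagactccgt
The CDK4 window held 3 E-boxes, whose first bases lay at -216, -196 and -101 counted from the RefSeq start. At least 3 were found in 28 of 35116 windows of the same length (0.0797%), and at least 1 in 6.34%. The CDK6 window had none, and neither had the window of its second RefSeq start. The CDKN2C window had 1, at -220. Of the other CDKN2C windows, that of the start at 50968706 had none and that of the start at 50970245 had 1, at -69. Across the 13 windows, 3 held an E-box and 0 held an E2F site searched as TTTCCCGC, TTTCGCGC, TTTGCCGC or TTTGGCGC on both strands, which 2.79% of all windows hold. The CDK6 and CDKN2C windows shown belong to the starts in the deposited table. The CDK4 window belongs to a RefSeq start at 57752310, inside the deposited gene, which begins at 57756013 on the minus strand. The RB1 window also belongs to a start inside the gene. None of the windows of CCND3, CDKN1B and CDKN2A belongs to the deposited start. A match describes the letters only.

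Of the 10 genes, 8 passed the filter on low counts and were tested. At an adjusted p under 0.05 in edgeR's quasi-likelihood test, CCND3 and CDKN2C were higher and CCND1, CDK6 and CDKN1C were lower in the libraries labelled sgGPR91. Those 5 of 8 (62.5%) stand beside 41.1% of all 12701 genes tested, of which 20.2% were higher and 21% lower. The remaining tested genes, CDK4, CDKN1B and RB1, did not pass. CCND2 and CDKN2A fell below the filter in these libraries. The libraries of the 2 groups did not overlap in CPM for 5 of the 8 (50.9% over all genes tested), with CCND3, CDKN2C and RB1 higher (25.7%) and CDK6 and CDKN1C lower (25.2%). The median log2 fold change of the 8 was -0.10, against -0.01 over all genes tested, and the genes moved in both directions.

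**Figure D1:**
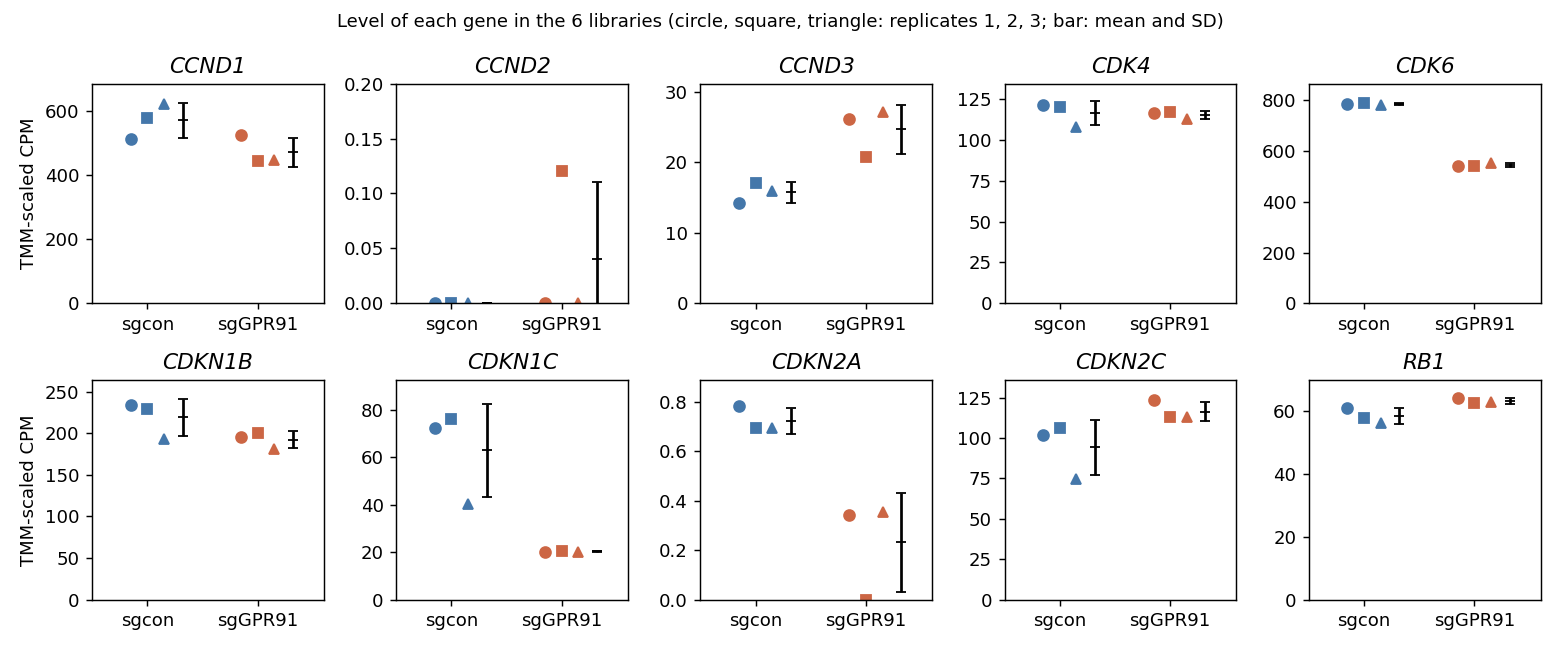
TMM-scaled CPM of each gene in each library, with the sgcon libraries on the left and the sgGPR91 libraries on the right of each panel, and a bar for the mean and SD of 3. The CDK6 points lie near 785 and near 545 CPM with little spread, the third sgcon library lies apart from the others in the CDKN1C and CDKN2C panels, and the scale of each panel starts at 0.

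Among the D-type cyclins, nearly all RNA was CCND1. CCND1 (ENSG00000110092, chromosome 11, 69641156 to 69654474, plus strand; positions as deposited) encodes cyclin D1, the cyclin through which growth factor signals most often reach the cycle. It stood at 513.8, 577.2 and 621.7 CPM in sgcon replicates 1 to 3 and at 524.5, 444.4 and 445.9 CPM in sgGPR91 replicates 1 to 3. The groups overlapped, because sgGPR91 replicate 1 lay above sgcon replicate 1. The log2 fold change was -0.28 ± 0.09 (SE), with an edgeR adjusted p of 0.0184. The call ended without sgcon replicate 2 (edgeR adjusted p = 0.0632), without sgGPR91 replicate 2 (0.105) and without sgGPR91 replicate 3 (0.108), and in limma on log2(FPKM + 1) (0.0713). CCND1 overlaps LTO1 on the opposite strand at its 3' end over 1399 bases; LTO1 was at 45.7 ± 8.48 and 49.8 ± 5.99 CPM and was not called.

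CCND3 (ENSG00000112576, chromosome 6, 41934934 to 42050357, minus strand) encodes cyclin D3, best known from lymphoid cells. It had 14.2, 17.1 and 15.9 CPM in the sgcon libraries and 26.2, 20.7 and 27.1 CPM in the sgGPR91 libraries, so every sgGPR91 library was above every sgcon library. This was a log2 fold change of 0.65 ± 0.14 (SE), 1.57-fold, at an adjusted p of 0.00118 in edgeR. The call held in all 14 alternative settings, with values of 0.50 to 0.76.

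CCND2 (ENSG00000118971, chromosome 12, 4269771 to 4305353, plus strand), which encodes cyclin D2, was represented by 1 read in all 6 libraries, in sgGPR91 replicate 2. A count of 0 allows up to 3 reads in a library, or 0.296 to 0.416 CPM. A difference in CCND2 was not detectable at this depth. By summed FPKM (reads scaled to gene length and library size), CCND3 made up 2.23, 2.39 and 2.07% of the D-type cyclins in sgcon and 3.96, 3.70 and 4.78% in sgGPR91. CCND1 made up 97.8% ± 0.158 and 95.8% ± 0.559 (SD, n = 3 per group), so cyclin D1 RNA remained the bulk of the family in every library.

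Of the pair of kinases, CDK6 was lower and CDK4 did not pass the test. CDK6 (ENSG00000105810, chromosome 7, 92604921 to 92836573, minus strand) had 784.2, 788.9 and 783.2 CPM in sgcon and 540.1, 540.0 and 554.2 CPM in sgGPR91. The groups did not overlap, with SDs of 3.03 and 8.17 CPM, each from only 3 libraries. On the log2 scale the change was -0.53 ± 0.07 (SE), a 1.44-fold lower level, with an edgeR adjusted p of 1.3e-05. Across the 14 alternatives the value stayed between -0.54 and -0.51 and the call held in each.

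CDK4 (ENSG00000135446, chromosome 12, 57747727 to 57756013, minus strand), the other kinase that D cyclins activate, had 121.0, 120.1 and 107.9 CPM in sgcon and 116.2, 116.9 and 112.6 CPM in sgGPR91. All 3 sgGPR91 values lay inside the sgcon range. The log2 fold change was -0.02, with a 95% interval of -0.17 to 0.13 and an edgeR adjusted p of 0.877. Its window, printed above, carried 3 E-boxes. MYCN itself was at 2766 ± 132.8 CPM in sgcon and 1689 ± 150.4 CPM in sgGPR91. This was a fall of 0.71 on the log2 scale with an edgeR adjusted p of 7.28e-06. Whether MYCN binds or acts on CDK4 in these cells was not tested. CDK4 overlaps TSPAN31 and MARCHF9 on the opposite strand, over 2493 and 911 bases, and no source used here says whether the counting used strand. TSPAN31 was at 22.0 ± 1.44 and 22.2 ± 0.689 CPM and MARCHF9 at 29.02 ± 1.80 and 26.4 ± 1.91 CPM, and neither was called.

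Per length, CDK6 RNA was above CDK4 RNA in all 6 libraries. The CDK4 share of the summed FPKM of both kinases was 37.9, 37.6 and 35.3% in sgcon and 46.0, 46.1 and 44.6% in sgGPR91. The 2 groups of shares did not overlap, and the values are given without a test. The listed CDK6 length is 12239 bases against 3094 for CDK4, so the ratio of levels between the kinases depends on those gene models.

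**Figure D2:**
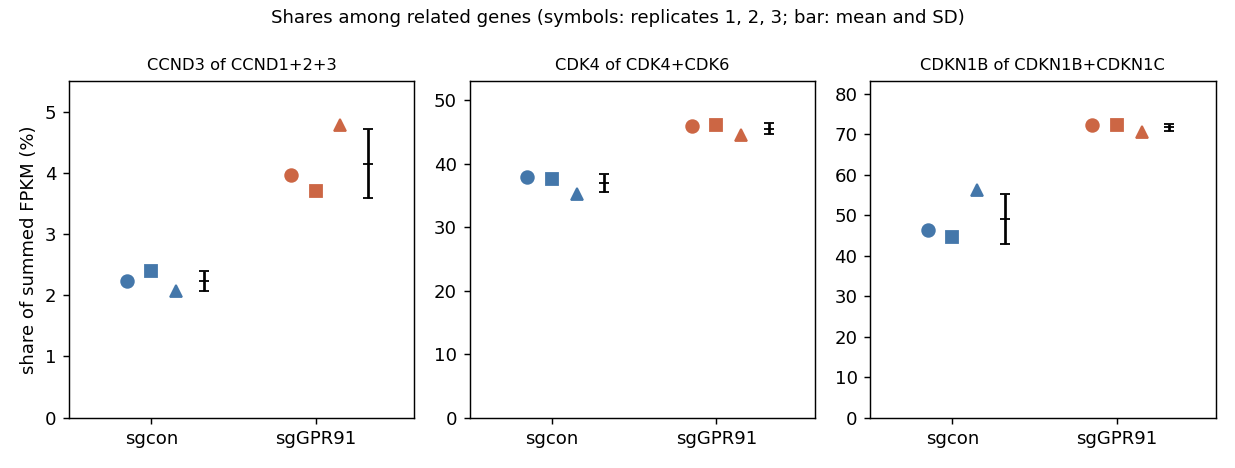
Percentage of summed FPKM held by CCND3 among the D-type cyclins, by CDK4 among CDK4 and CDK6, and by CDKN1B among CDKN1B and CDKN1C, for each library of the 2 groups, with a bar for mean and SD. In each panel the sgGPR91 libraries lie above the sgcon libraries, with CDK4 shares of 44.6 to 46.1% against 35.3 to 37.9%.

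The CIP/KIP inhibitor CDKN1C had the largest difference of the 8 tested genes. CDKN1C (ENSG00000129757, chromosome 11, 2883213 to 2885775, minus strand) encodes p57, the inhibitor from the imprinted region of 11p15 that restrains growth in the embryo. It stood at 72.3, 76.0 and 40.3 CPM in sgcon and at 20.18, 20.55 and 20.15 CPM in sgGPR91. The sgGPR91 libraries were nearly identical and lay below all sgcon libraries, while sgcon replicate 3 was well under the other two. The difference was -1.64 ± 0.18 (SE) on the log2 scale, a 3.12-fold lower level, at an edgeR adjusted p of 2.09e-06. All 14 alternatives kept the call, with values from -1.87, without sgcon replicate 3, to -1.46.

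The genes whose log2 CPM over the 6 libraries was most like that of CDKN1C, by Pearson's r among genes with a mean of at least 5 CPM, were ALDOC, LOXL2 and TNIP1. ALDOC encodes a glycolytic aldolase, LOXL2 a lysyl oxidase that crosslinks collagen, and TNIP1 a ubiquitin-binding inhibitor of NF-κB signalling. Their r was 0.9987, 0.9983 and 0.9979 over 6 libraries, a description in which both the group difference and sgcon replicate 3 take part. ALDOC had 129.5, 137.8 and 84.9 CPM in sgcon and 53.1, 54.5 and 55.9 CPM in sgGPR91. All 3 genes shared with CDKN1C the low value of sgcon replicate 3, at 117.5 CPM for LOXL2 and 120.0 CPM for TNIP1 in that library.

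CDKN1B (ENSG00000111276, chromosome 12, 12685498 to 12722369, plus strand) encodes p27, an inhibitor of CDK2 complexes that is controlled largely by protein breakdown. Its levels were 234.2, 229.5 and 193.3 CPM in sgcon and 195.9, 200.8 and 180.8 CPM in sgGPR91. The groups overlapped through sgcon replicate 3, the lowest of its group. The log2 fold change was -0.19 ± 0.08 (SE), with an edgeR adjusted p of 0.0704. Without sgcon replicate 3 it was -0.27 and passed (edgeR adjusted p = 0.00208), and with the replicate number as a block it passed as well (edgeR adjusted p = 0.0322). The deposited model starts well upstream of the GENCODE version 29 start at 12715058 and overlaps GPR19 on the opposite strand over 10710 bases; GPR19 was at 9.46 ± 2.08 and 10.97 ± 0.620 CPM.

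Between these 2 inhibitors, the CDKN1B share of summed FPKM was 46.5, 44.7 and 56.2% in sgcon and 72.2, 72.4 and 70.6% in sgGPR91. This share was chosen after its values were seen. In sgcon the p57 and p27 transcripts were at 25.2 ± 7.47 and 23.6 ± 1.95 FPKM. In sgGPR91 they were at 8.21 ± 0.140 and 20.9 ± 1.12 FPKM. The listed lengths are 2480 bases for CDKN1C and 9255 for CDKN1B, whose deposited model starts upstream of the GENCODE one. Both the share and the ratio of levels between these 2 genes depend on those gene models. Without length scaling, the sgcon means were 62.9 CPM for CDKN1C and 219 CPM for CDKN1B.

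Of the INK4 inhibitor genes CDKN2A and CDKN2C, CDKN2C passed the count filter. CDKN2C (ENSG00000123080, chromosome 1, 50960745 to 50974634, plus strand) encodes p18. It had 101.7, 106.0 and 74.7 CPM in sgcon and 123.4, 112.9 and 112.8 CPM in sgGPR91. The groups did not overlap, and sgcon replicate 3 was again the lowest library. The log2 fold change was 0.30 ± 0.10 (SE), with an edgeR adjusted p of 0.0286. Without sgcon replicate 3 it dropped to 0.16 and the call ended (edgeR adjusted p = 0.0702). It also ended without sgGPR91 replicate 1 (0.120), replicate 2 (0.0582) or replicate 3 (0.0561), and in limma on log2(FPKM + 1) (0.0580).

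CDKN2A (ENSG00000147889, chromosome 9, 21967752 to 21995301, minus strand) encodes p16 from one start and the p53 regulator ARF from another, and a count per gene cannot separate them. It had 7, 7 and 5 reads in the sgcon libraries and 3, 0 and 3 in the sgGPR91 libraries. The sums were 19 and 6 reads, with exact Poisson 95% intervals of 11.4 to 29.7 and 2.20 to 13.1, which cover counting error only. Each sgcon library was above each sgGPR91 library, and an exact permutation test (two-sided, on log2 CPM) returned p = 0.1, the smallest p for 3 libraries against 3. In edgeR with no filter on low counts the adjusted p was 0.150. MTAP, the nearest tested gene and a frequent partner of CDKN2A in deletions, was at 98.5 ± 8.12 CPM in sgcon and 109.2 ± 5.98 CPM in sgGPR91.

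RB1 (ENSG00000139687, chromosome 13, 48303744 to 48599436, plus strand), the substrate of the cyclin D kinases, had 61.0, 57.6 and 56.2 CPM in sgcon and 64.2, 62.4 and 62.8 CPM in sgGPR91. The sgGPR91 libraries all lay above the sgcon libraries, by a small margin. Its log2 fold change was 0.11, with a 95% interval of -0.05 to 0.28 and an edgeR adjusted p of 0.252. LPAR6 and RCBTB2 lie inside its span on the opposite strand. They had a mean of 0.269 and 2.83 CPM over the 6 libraries.

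**Figure D3:**
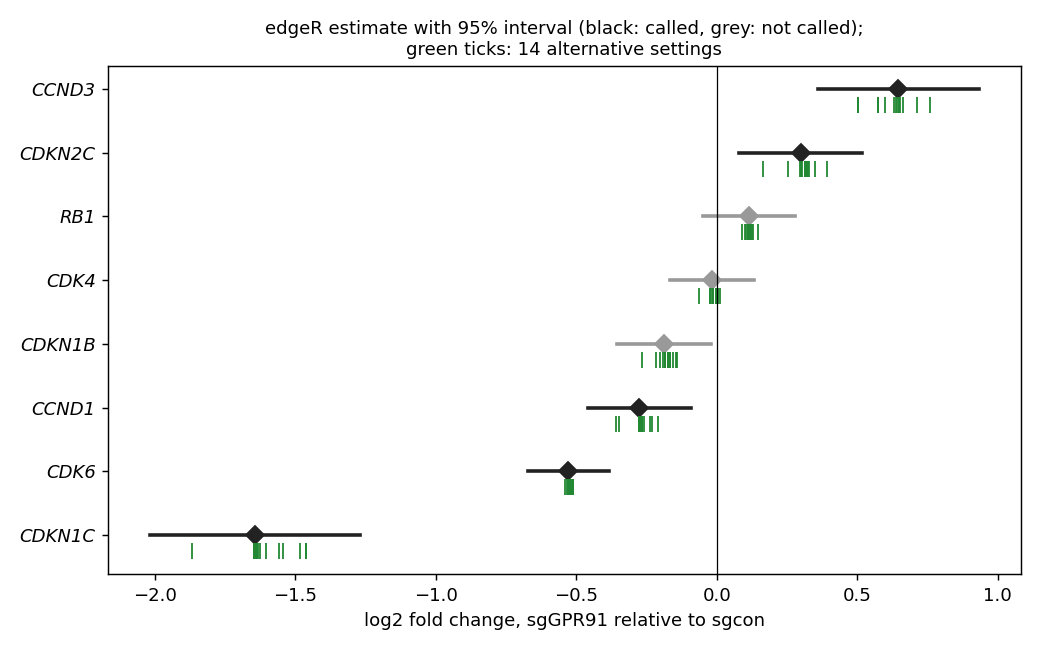
Log2 fold change of the 8 tested genes, sgGPR91 relative to sgcon, with the edgeR 95% interval, and ticks below each for 14 alternative settings. CDKN1C lies farthest from 0 at -1.64, CCND3 is the highest at 0.65, and the CDK4 interval of -0.17 to 0.13 spans 0.

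Ordered by length-scaled level, the sgcon libraries had CCND1 first at 119.7 ± 13.6 FPKM, followed by CDK6 at 64.0 ± 1.19 and CDK4 at 37.5 ± 1.61. CDKN2C, CDKN1C and CDKN1B came next, and neighbours within this trio overlapped between libraries. The place of CDKN1B depends on its listed length of 9255 bases. RB1 at 9.03 ± 0.262, CCND3 at 2.73 ± 0.267, CDKN2A at 0.185 ± 0.0115 and CCND2 at 0 FPKM closed the order without overlap. In sgGPR91, CCND1 at 99.3 ± 8.81 and CDK6 at 44.6 ± 0.869 FPKM kept their places. CDKN2C at 38.7 ± 1.70 and CDK4 at 37.4 ± 0.755 FPKM overlapped there. CDKN1C, at 8.21 FPKM, moved from above CDKN1B in sgcon to below RB1, at 9.84 FPKM, and CDKN1C and RB1 did not overlap. CCND3 was at 4.29 ± 0.591 FPKM, and CDKN2A and CCND2 overlapped at the bottom.

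**Figure D4:**
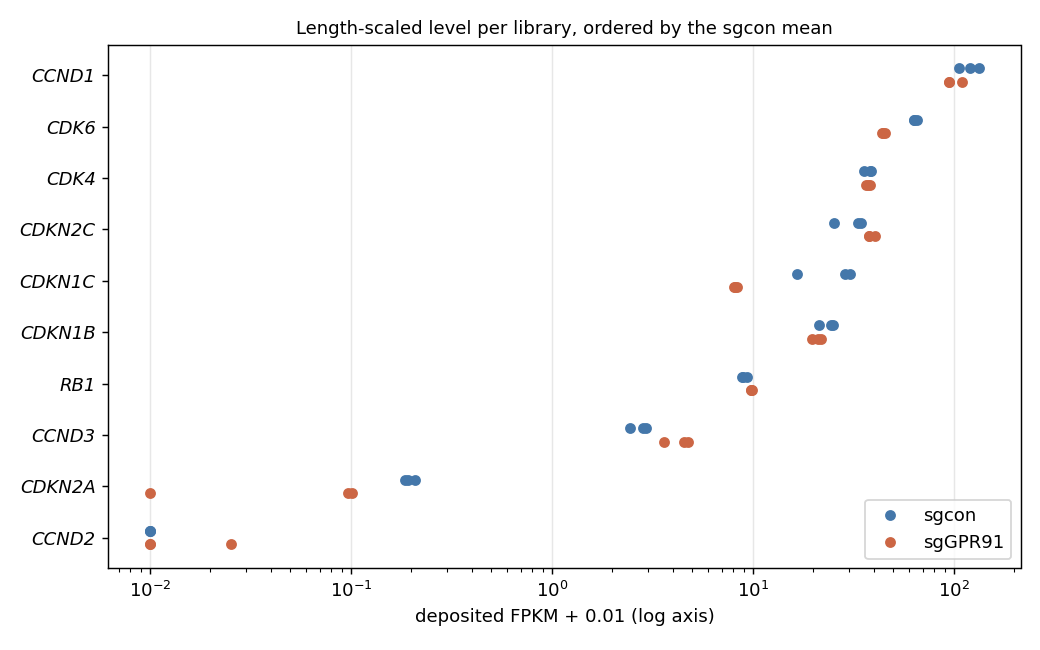
Deposited FPKM plus 0.01 on a log axis for each of the 6 libraries, with genes ordered by their sgcon mean. CCND1 and CDK6 are the top 2 genes in both groups, and CDKN1C drops from 25.2 to 8.21 FPKM.

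The other genes of the pathway were taken from lists chosen with earlier results of these data known. Of 10 further genes tested for cyclins, kinases and their regulatory partners, 1 fell and 0 rose, beside 41.1% called over all genes tested. CCNG2, which encodes the atypical cyclin G2, linked to cell cycle arrest rather than progression, fell from 125.2 ± 21.3 to 61.0 ± 3.34 CPM, a 2.06-fold lower level with an edgeR adjusted p of 1.05e-06. CCNE1 and CCNE2, the cyclins that act with CDK2 after cyclin D, were at 9.03 ± 0.784 and 10.2 ± 0.833 CPM and at 6.94 ± 0.250 and 7.82 ± 1.80 CPM in sgcon and sgGPR91. CDK2 was at 29.5 ± 0.473 and 28.1 ± 4.60 CPM. CDK5, a kinase gene best known from neurons, was at 26.99 ± 1.99 and 32.98 ± 4.82 CPM, did not pass (edgeR adjusted p = 0.0557), and was called in 4 of the 14 alternatives. Of 3 further inhibitor genes tested, 0 were called, namely CDKN1A, CDKN2D and CDKN3. CDKN2B, the neighbour of CDKN2A, did not pass the count filter. The list medians were 0.01 and -0.05, against -0.01 over all genes.

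Among 17 genes of the pocket proteins, E2F factors and the DREAM complex, which represses cycle genes in resting cells, 4 rose and 3 fell (41.2%, beside 41.1% of all genes tested). MYBL2, an activator of G2 genes, rose from 102.6 ± 2.79 to 130.8 ± 3.99 CPM, the repressor E2F4 1.32-fold and the activator E2F3 1.22-fold. E2F8, an atypical repressor, fell from 15.4 ± 1.33 to 9.64 ± 1.11 CPM, LIN54 fell 1.52-fold, and RBL1, the p107 relative of RB1, fell from 58.1 ± 1.54 to 42.8 ± 0.153 CPM. RBL2, the p130 gene, was at 78.6 ± 2.01 and 75.3 ± 5.72 CPM and did not pass.

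Of 30 E2F target genes, 4 rose and 11 fell (50%, beside 41.1% of all genes tested, 20.2% higher and 21% lower). Their median was -0.02. The largest falls were 1.86-fold in the licensing factor gene CDT1, 1.56-fold in the cyclin A gene CCNA2 and 1.51-fold in the thymidine kinase gene TK1. Rises were found for RRM2, a ribonucleotide reductase subunit gene, at 1.33-fold, for MYBL2, and for PCNA, the replication clamp gene, from 105.3 ± 9.13 to 129.5 ± 9.62 CPM. The genes linked to the turnover of D cyclins and p27 include ligase subunits, the deubiquitinase gene USP2 and kinase genes. Of these, 19 were tested, and 4 rose and 4 fell (42.1%, beside 41.1% of all genes tested). FBXW7, the ubiquitin ligase subunit that targets cyclin E and MYC proteins, fell from 56.3 ± 2.19 to 27.9 ± 0.982 CPM. FBXO31, a cyclin D1 ligase gene, fell 1.40-fold and SKP2, whose product marks p27 for breakdown, fell 1.17-fold. FBXO4 rose 1.58-fold, SKP1 1.26-fold and RBX1 1.21-fold; the RBX1 call ended in 8 of the 14 alternatives and the SKP2 call in 3.

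Of 18 tested regulators of these genes, 7 fell and 3 rose (55.6% called), with a median of -0.17. MYCN fell as given above, and JUN, an AP-1 subunit gene that can activate CCND1, fell from 96.3 ± 21.6 to 60.1 ± 1.51 CPM. CTNNB1, the beta-catenin gene, rose 1.29-fold and RNF2, a Polycomb ligase gene, rose 1.20-fold, a call that ended in 4 of the 14 alternatives. These counts of list genes are descriptions beside the background of 41.1%. In bulk RNA, fewer cells in a given cycle phase and less RNA per cell cannot be told apart.

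**Figure D5:**
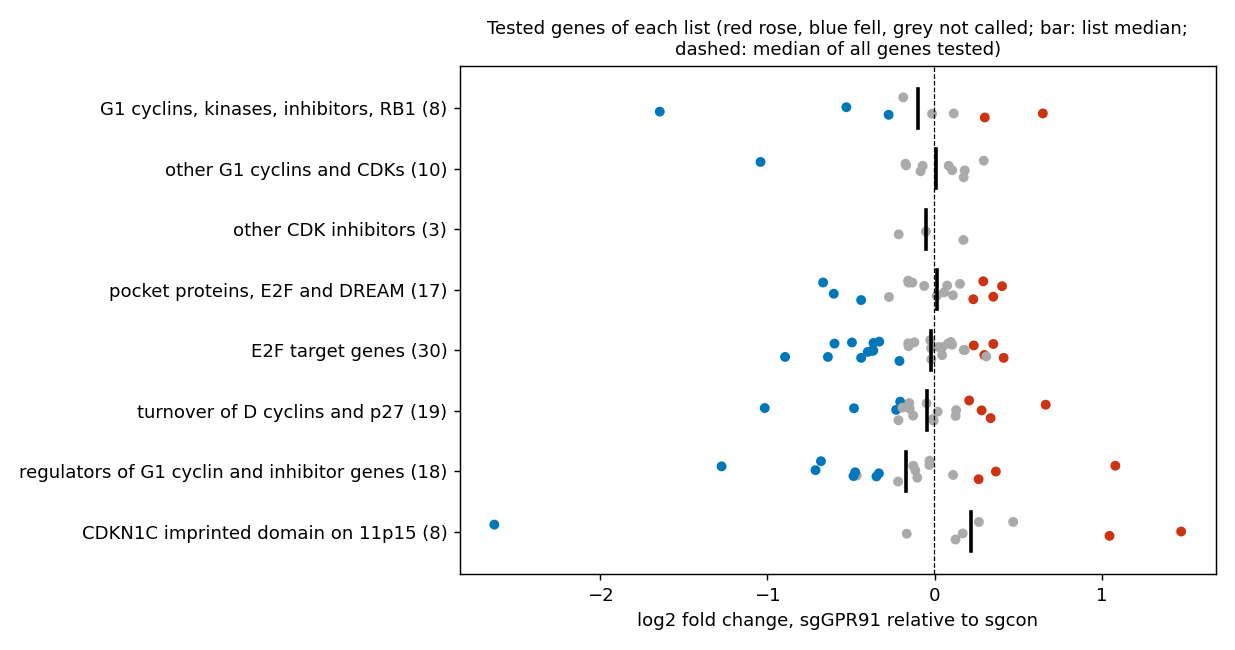
Log2 fold change of each tested gene, sgGPR91 relative to sgcon, for the 8 tested G1 genes and 7 lists of other pathway genes, with the number tested in brackets and a bar at each list's median. The medians lie between -0.17 and 0.22, close to the dashed median of all genes, while single genes such as IGF2 at -2.63 and CDKN1C at -1.64 lie far out.

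The genomic surroundings of the called genes were compared by position. Within 1 Mb of the CDKN1C start, 19 genes were tested, of which 4 rose and 3 fell (36.8%, beside 41.1% of all genes tested). Their median was 0.12 against -1.64 for CDKN1C. Within 5 Mb, 85 genes had a median of 0.05. Among the genes within 1 Mb, IGF2, a growth factor gene of the paternal copy, fell from 24.9 ± 4.79 to 4.01 ± 0.774 CPM. The neuroblastoma marker TH also starts within 1 Mb and fell from 270.3 ± 26.9 to 90.5 ± 7.21 CPM. PHLDA2, a maternally expressed neighbour, rose from 3.15 ± 0.949 to 8.57 ± 0.509 CPM. SLC22A18 and TSSC4, the nearest tested genes on either side of CDKN1C, were at 6.48 ± 1.39 and 8.87 ± 0.306 CPM and at 17.1 ± 1.88 and 20.5 ± 1.69 CPM, and neither was called.

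Around CDK6, 11 genes were tested within 1 Mb, of which 0 rose and 4 fell (36.4%). Over all genes tested, 41.1% were called, 20.2% higher and 21% lower. The 11 genes had a median of -0.16, and 35 within 5 Mb had a median of -0.02. FAM133B, the nearest tested gene on one side, fell from 37.3 ± 2.52 to 27.8 ± 0.519 CPM, and SAMD9 on the other side was at 1.75 ± 0.321 and 1.95 ± 0.267 CPM. Within 1 Mb of CCND1, 2 of 14 tested genes rose and 5 fell (50% called), with a median of -0.17. MYEOV, the nearest before CCND1, fell from 1.75 ± 0.495 to 0.703 ± 0.112 CPM. Around CCND3, 2 of 20 rose and 2 fell (20% called), and its neighbours BYSL and TAF8 were not called, at log2 fold changes of -0.04 and -0.14.

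CDKN2C lay between a gene that fell and one that rose. FAF1 went from 124.5 ± 9.79 to 95.97 ± 3.02 CPM and RNF11 from 57.2 ± 4.26 to 74.7 ± 2.63 CPM, and the 8 genes tested within 1 Mb had a median of 0.05. ITM2B, before RB1, rose with a log2 fold change of 0.37. RCBTB2, the next tested gene by start position, lies inside RB1 on the opposite strand and rose by 0.85 on the log2 scale. Of the 8 genes tested within 1 Mb of RB1, RCBTB2 among them, 3 rose and 0 fell (37.5%, beside 41.1% of all genes tested). APOLD1, after CDKN1B, had a log2 fold change of -0.08 and was not called. Beside CCND2, PARP11 was not called and TIGAR, a p53-induced metabolic regulator gene, rose from 1.48 ± 0.308 to 4.01 ± 0.868 CPM. ELAVL2, on the far side of CDKN2A, was at 64.6 ± 2.81 and 56.3 ± 5.16 CPM and was not called.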

How the data were processed

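Per the labels' protocols, total RNA was extracted with Trizol and made into NEBNext Ultra libraries. The deposited counts are whole reads per gene for each library, and the deposited FPKM values equal, per the file headers and their values, each count divided by listed gene length and by the column's total count, on the usual FPKM scale. HISAT2, Bowtie2 and RSEM are named in the submitters' processing notes without versions or roles. No genome build is named in the sources used here. All 10 gene identifiers are in GENCODE version 29, with the same strand and, for 1, identical positions.

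Counts were tested with edgeR 4.0.16 in R 4.3.3 on all genes kept by filterByExpr (minimum count 10, minimum total 15), with TMM scaling, no covariate, Benjamini-Hochberg adjustment over 12701 genes and a threshold of 0.05. CPM values are TMM-scaled means ± SD over 3 libraries. SE is the absolute log2 fold change over the square root of F. The biological coefficient of variation was 7.56%. The fit was tested on simulated data. Genes and lists were chosen with earlier results of these data known. The genes named are the 10, SUCNR1, in each list up to 3 rising and 3 falling called genes with a mean of at least 5 CPM, the nearest tested neighbours, and the 3 genes most like the called gene with the largest change; genes beyond these are named after their values were seen. Alternatives were RLE and upper-quartile scaling, DESeq2 1.42.0, no filter, a replicate block, limma 3.58.1 on log2(FPKM + 1) and log2(FPKM + 0.1), and leaving out each library. The number of columns of other samples was 0. Intervals from counts and the floor of 3 reads cover counting error only. One gene that this rule names is not reported here.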

Additional observations from a re-analysis of the deposited data

How the results depend on the processing

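CDK6, CDKN1C and CCND3 kept their direction and call, and CDK4 and RB1 stayed without one, in all 14 alternatives. Of the 10 genes, 2 were called higher and 3 lower. With limma on log2(FPKM + 1), on log2(FPKM + 0.1) or on log2(FPKM + 1) with no filter, 1 was called higher. Fold changes from limma are on the log2(FPKM + pseudocount) scale, where changes of low genes come out smaller. Leaving out each library in turn gave 1 to 2 higher and 2 to 4 lower. The CDKN2C call ended in 7 alternatives, at adjusted p-values up to 0.120 (edgeR without sgGPR91 replicate 1). The CCND1 call ended in 6, at up to 0.111 (limma on log2(FPKM + 0.1)). Settings without a library hold fewer samples, while the limma settings hold all 6 libraries. Without sgcon replicate 3 the CDKN2C log2 fold change was 0.16, while calls over all genes were 5707 against 5221. The cause of these lost calls was not tested. Over the 106 genes of the other lists, 16 were called higher and 26 lower, with 10 to 16 higher when a library was left out, the lowest without sgGPR91 replicate 1.

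The replicate numbers were not taken as pairs. Same-numbered libraries had correlations of their deviations from the group means of 0.15, 0.02 and 0.09. Libraries with different numbers had values from -0.13 to 0.06. Replicates 1 and 3 of sgGPR91 correlated best with their own number, and sgGPR91 replicate 2 correlated best with another number. With the replicate block, 2 of the 10 genes were called higher and 4 lower, the added gene being CDKN1B, and calls over all genes went from 5221 to 5670. Depth limits CCND2 and CDKN2A, which lie at or near the floor of 3 reads.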
